A study of Homo sapiens with 4 samples.

Results

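The 641 genes described here lie shortly after another transcribed gene on the same strand. They were chosen on the isotonic libraries: a gene had to overlap no other gene on its strand, have a mean isotonic level of at least 0.5 RPKM (reads scaled to gene length and library depth), and begin no more than 10 kb past a gene on the same strand whose mean isotonic level was at least 1 RPKM, called its neighbour below. The tables held 57428 genes with a row for their own strand, of which 41552 overlapped no gene on that strand and 6144 of these reached 0.5 RPKM. The 641 members had 630 different neighbours, and for 72 of them the neighbour was itself a member, so pairs that share a gene are not independent. In 157 pairs the neighbour overlapped a further gene on its strand, and its value then rests on part of its length.

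The libraries are Bru-seq, which captures RNA made while cells take up bromouridine and so reads transcription in progress. The cells were U2OS, a human osteosarcoma line, and in both groups they stably overexpressed GFP-DCP1a, a decapping cofactor fused to a fluorescent protein, and were grown under G418 selection. Labelling took 30 min at 2 mM bromouridine in both groups, with extraction 0 h later. The hypertonic group was given medium brought to 300 mM sodium with concentrated buffered saline, and the isotonic group medium at 150 mM sodium with an equal volume of normal-strength saline. Each group had 2 libraries. How long the cells were in either medium, whether the replicates were separate cultures and whether the line is a single clone are not given in the sources used here. P-values thus compare the media with library-to-library scatter only, part of which may be technical.

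A transcribing RNA polymerase normally ends a protein-coding gene in steps: a polyadenylation signal in the nascent RNA is recognised, the RNA is cut after it, and the polymerase is released some way further on. Polymerases that are not released can run on into the next gene, where their RNA is counted as that gene's sense transcription although its own promoter did not make it. Nascent RNA includes such transcription, because it is labelled before most of it is degraded. Counts per gene, as used here, do not tell it from transcription begun at the gene's own promoter. Reads between the genes of a pair were not examined, and the source of a member's reads was not tested.

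Total counts ranged from 23048409 to 44888307 per library, and the median member had 209 and 281 counts in the hypertonic libraries (replicates 1 and 2, always in that order), against 296 and 151 in the isotonic ones. Of the 10 mesenchymal and osteosarcoma markers, 6 had at least 1 RPKM in the isotonic libraries, with VIM at 17.2 RPKM, whereas TWIST1 was at 0 and COL1A2 was below 0.01 RPKM. Of 9 markers of other cell types, KRT18 alone exceeded 1 RPKM (1.40), and CD3E and ALB were at 0. The 5 of these 9 with enough counts all had a log2 fold change above 0 (median 0.87), 0 passed edgeR's test, and 3 had both hypertonic libraries above both isotonic ones in CPM. Their summed level over all 9 was 2.34 and 4.79 RPKM in hypertonic and 1.71 and 1.90 in isotonic libraries, and its part in the results was not tested.

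To show where the pairs meet, 9 neighbours named below are given by the last 30 bases of the neighbour's longest annotated extent (GENCODE 29, GRCh38, 5′ to 3′ along the transcribed strand). Capitals mark the commonest polyadenylation signal, AATAAA, and its usual variant, ATTAAA. DDX5, NAP1L1, AEN, MTHFD1 and GAR1 precede members with a higher ratio in hypertonic medium, NXPE3 and MTF1 precede members with a lower one, and NCAPD2 and MIEF1 precede members with a high level in all libraries.
DDX5: ccAATAAAaaatatttgaagactgaattaa
NAP1L1: cattatgaATTAAAcacttaataactttcc
AEN: ttctagAATAAAactcaattggaaacgtgg
MTHFD1: atactaAATAAAttcatctctcacctcaaa
GAR1: ttaaAATAAAgtgttttattcccttaagtt
NXPE3: ctccttgaaAATAAAgtgatcttcatgtta
MTF1: tcctaATTAAAtgcttatttaaatctggta
NCAPD2: ctaatgAATAAAtgtttttatatactttta
MIEF1: aagaagaaAATAAAcatctcctttccaaca

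These bases lie at chr17:64499616-64499645 on the minus strand for DDX5, chr12:76036587-76036616 on the minus strand for NAP1L1, chr15:88632253-88632282 on the plus strand for AEN and chr14:64463428-64463457 on the plus strand for MTHFD1. The others lie at chr4:109824711-109824740 on the plus strand for GAR1, chr3:101827363-101827392 on the plus strand for NXPE3, chr1:37809567-37809596 on the minus strand for MTF1, chr12:6531926-6531955 on the plus strand for NCAPD2 and chr22:39518103-39518132 on the plus strand for MIEF1. Each of these ends carried 1 of the hexamers, which were searched on the transcribed strand only. The ends of some other neighbours named below, such as INTS2, BCLAF1 and MTRF1L, carried neither hexamer and are not shown. Among 549 protein-coding neighbours of members, AATAAA stood in the last 30 bases of 46.6% and ATTAAA without it in a further 15.1%. Among 4398 other active protein-coding genes these shares were 51.5% and 12.6%. Within the members, one or the other stood at 59.9% of 269 neighbours whose member was higher relative to them in both hypertonic libraries, and at 63.6% of the remaining 280.

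Promoter windows from RefSeq (GRCh38.p14) could be matched for 212 of the 641 members, fewer than the 80% needed to compare composition, so no such comparison is given. Those of POLG2 and AKAP5, which had the lowest unadjusted p-values of any member in edgeR, are shown as the 250 bases before the annotated start, 5′ to 3′ along the gene's strand. Capitals mark, on either strand, the TATA motif TATAAA, the CCAAT box, the GC box GGGCGG and the ETS-type motif CCGGAAG.
POLG2: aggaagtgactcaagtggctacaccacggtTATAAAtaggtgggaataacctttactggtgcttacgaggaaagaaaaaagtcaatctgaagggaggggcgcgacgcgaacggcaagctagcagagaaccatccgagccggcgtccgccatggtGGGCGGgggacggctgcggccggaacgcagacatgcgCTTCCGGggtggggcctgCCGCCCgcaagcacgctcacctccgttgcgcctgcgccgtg
AKAP5: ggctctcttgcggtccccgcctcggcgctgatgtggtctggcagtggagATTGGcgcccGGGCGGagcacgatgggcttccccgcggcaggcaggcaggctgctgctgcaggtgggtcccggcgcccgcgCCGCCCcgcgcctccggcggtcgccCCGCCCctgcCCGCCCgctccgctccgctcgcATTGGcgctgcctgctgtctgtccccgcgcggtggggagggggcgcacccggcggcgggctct

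The windows lie at chr17:64497055-64497304 on the minus strand for POLG2 and chr14:64465249-64465498 on the plus strand for AKAP5. Over the 22114 RefSeq windows of this length, the TATA motif occurred in 11.8%, the CCAAT box in 33.4%, the GC box in 40.9% and the ETS-type motif in 8.90%. Those windows were not limited to genes expressed in these cells, so the shares are no baseline for expressed genes. POLG2 held the TATA, GC and ETS-type motifs, and AKAP5 the CCAAT and GC boxes. A match describes the letters only.

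Relative to their neighbours, the members stood higher in hypertonic than in isotonic medium. The median member measured 60.5% and 61.6% of its neighbour's RPKM in the isotonic libraries, and 117% and 83.1% in the hypertonic ones. Both hypertonic libraries were above both isotonic ones, and hypertonic replicate 1 lay further from them than replicate 2. The number of members above their neighbour was 175 in each isotonic library, 372 in hypertonic replicate 1 and 247 in replicate 2.

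Members and neighbours were also read separately. The median RPKM of the members was 1.27 and 1.15 in isotonic and 1.29 and 1.83 in hypertonic replicates 1 and 2, and that of their neighbours was 2.02 and 1.88 against 1.12 and 2.06. On this scale only hypertonic replicate 2 had a clearly higher level of members, and only hypertonic replicate 1 a lower level of neighbours. As a share of all sense counts, members took 1.96% and 1.90% in isotonic and 2.36% and 2.50% in hypertonic libraries, with no overlap. Neighbours took 6.33% and 6.41% against 4.96% and 6.72%, which overlap.

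For a change per member, the log2 ratio of member to neighbour in CPM (counts scaled to library depth) was taken in each library, and the mean of the isotonic libraries subtracted from that of the hypertonic libraries. Counts sufficed in 594 members, and in 589 for the neighbour as well; the 47 without enough included 9 of 10 miRNAs and 9 of 15 miscellaneous RNAs. The median change over the 589 pairs was 0.66 (quartiles 0.15 and 1.16), and the range ran from -1.72 to 3.37. Hypertonic replicate 1 gave a median change of 0.84 and replicate 2 of 0.43, whereas the isotonic libraries differed from each other by a median of -0.02. Because the isotonic levels chose the members, the rule was also applied to 1 isotonic library alone, and the genes it gave were compared with the other only. Chosen on replicate 1 the median change was 0.61 (607 pairs), and chosen on replicate 2 it was 0.67 (562 pairs).

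The ratio was higher in hypertonic medium in 474 of the 589 pairs (80.5%), and lower in 115. Across all 2556 pairs of a gene with an active gene ending within 50 kb before it, which include genes too weakly expressed to be members, 83.2% were higher and 16.8% lower. In 285 members (48.4%) both hypertonic libraries were above both isotonic ones, and in 31 (5.26%) both were below. Over all pairs these shares were 56.1% and 4.85%. Genes under 0.5 RPKM could pass the count filter through the hypertonic libraries alone. The shares over all pairs, here and below, are therefore no baseline for expressed genes. In expressed genes whose active gene ended 10 to 50 kb upstream, 25.9% were above and 11.9% below.

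**Figure D1:**
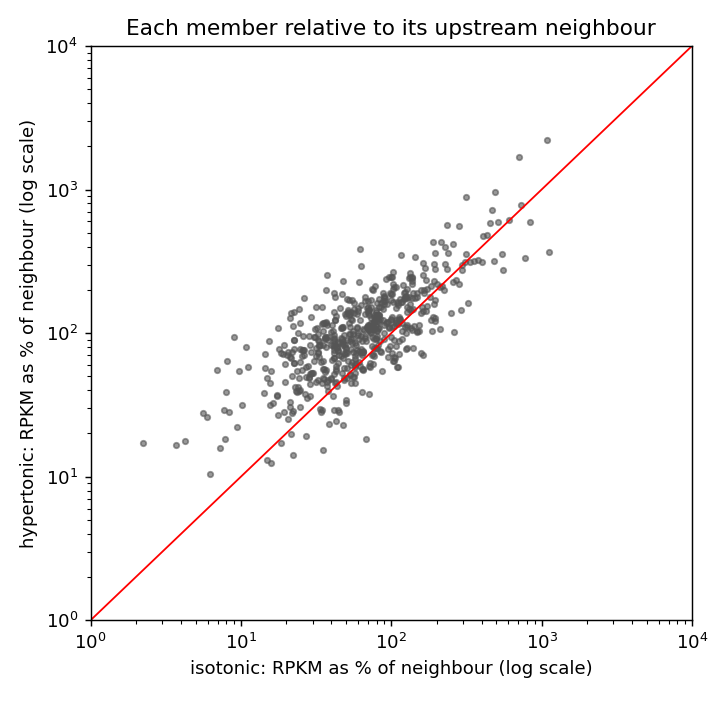
Level of each member as a percentage of its neighbour's RPKM in isotonic (x axis) and hypertonic medium (y axis), each the geometric mean of 2 libraries, on log scales. Each point is 1 of 588 members with values above 0 in all libraries, and the red line marks equal percentages; 471 points lie above it.

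By the members' own counts, the median log2 fold change (hypertonic over isotonic, edgeR) was 0.24, and it was above 0 in 385 of 594 (64.8%, against 52.4% of the 21238 genes tested) and below 0 in 209 (35.2%, against 47.6%). The median over all genes tested was 0.04 with the normalization used and 0.26 when libraries were scaled to their total counts, where that of the members was 0.48. The neighbours in the 589 pairs had a median of -0.33, and so had the 5390 expressed genes without overlap that were not members. Among those non-members 23.3% had a fold change above 0. The median of these non-members was -0.68 without hypertonic replicate 2. That of the members was 0.081 when only those with at least 1 RPKM were kept. Both hypertonic libraries exceeded both isotonic ones in CPM in 165 members (27.8%, against 22.5% of all genes), and both lay below in 61 (10.3%, against 17.5%). Weakly expressed genes are among all genes tested, so shares over all genes, here and below, are no matched baseline for the members.

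No single member passed edgeR's quasi-likelihood test with Benjamini-Hochberg adjustment over all genes. The count was 0 in each direction (0% of all genes likewise), with a lowest adjusted p of 0.192. At an unadjusted p under 0.05, 31 members were higher (5.22%, against 8.89% of all genes) and 2 lower (0.337%, against 2.01%). DESeq2 called 11 members higher (1.85%, against 3.32%) and 0 lower (0.118%), and limma-voom called 0. With replicate number as a block edgeR called 3 higher (0.505%, against 1.79%) and 0 lower (0.0188%), and without the count filter 6 higher (0.936%, against 2.33%) and 0 lower (0.126%). For the ratio to the neighbour, limma called 0 members in either direction (0% of all pairs), with a lowest adjusted p of 0.0668 among members; at an unadjusted p under 0.05, 70 were higher (11.9%, against 26.1% of all pairs) and 0 lower (0.352%). With the block limma called 2 higher (0.34%, against 3.17%) and 0 lower. These counts depend on single hypertonic libraries. Without hypertonic replicate 2 edgeR called 69 members higher (11.4%, against 11.1% of all genes) and 30 lower (4.98%, against 10.3%), and limma called 182 ratios higher (30.9%, against 45.3% of all pairs) and 16 lower (2.72%, against 3.52%). Without hypertonic replicate 1 edgeR called 0, and limma 56 higher (9.51%, against 16.3%) and 5 lower (0.849%, against 0.704%); the lone hypertonic library is then assumed to vary like the isotonic ones.

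Genes in other positions served for comparison, all expressed and free of same-strand overlap. In 671 pairs whose active gene ended 10 to 50 kb upstream the median change of the ratio was 0.19, and 25.9% had both hypertonic libraries above both isotonic ones. In 547 genes that had an active gene starting on the opposite strand within 10 kb before them the median was 0.07, and it was -0.012 without hypertonic replicate 2. In 414 genes with an active gene starting within 10 kb after their end, the described gene is the upstream one. Their median was -0.28 and the pattern was inverted: 10.1% were above in both hypertonic libraries and 32.9% below. Where the upstream gene was itself active, such a pair can be a member pair with its ratio turned over. The lowest value, -2.68, is that of CTPS1 over SLFNL1-AS1, a member pair at 2.68. This class is therefore not independent of the members, and the share of such pairs was not counted. Leaving out hypertonic replicate 1 or 2 gave medians of 0.14 and 0.36 in the pairs at 10 to 50 kb, and of -0.13 and -0.54 in the inverted pairs. Differences between these classes and the members were not tested. Their own log2 fold changes had medians of -0.14, -0.35 and -0.32, against 0.24 for the members.

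**Figure D2:**
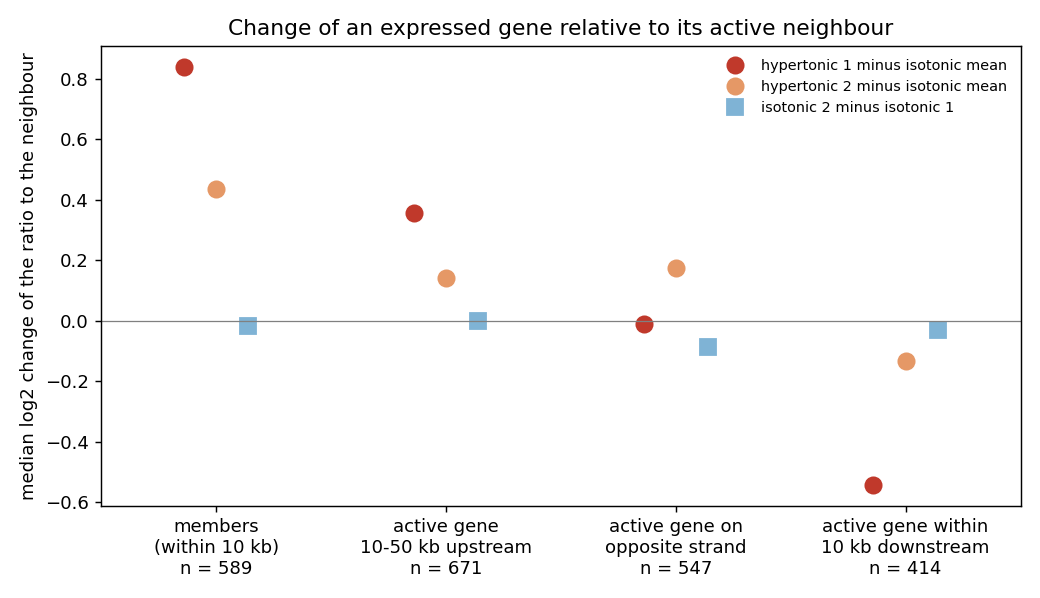
Median log2 change of the ratio to the active neighbour (y axis) for the 589 member pairs and 3 comparison classes (x axis). Circles are each hypertonic library minus the isotonic mean and squares are isotonic replicate 2 minus replicate 1; the members have the highest circles, at 0.84 and 0.43, and a square near 0 (-0.02).

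Genes in the same position whose level was too low for membership were read as well. In 445 genes under 0.5 RPKM within 10 kb of an active gene the median change of the ratio was 2.22, with 87.6% above in both hypertonic libraries. Such genes could pass the count filter through the hypertonic libraries alone, which favours a higher ratio. The median and the share are therefore no measure of how large or how common the pattern is, and are not ranked against the members.

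Within the members, the change was related to how far a member stood below its neighbour in isotonic medium. This split uses the same isotonic values as the change and is a description. The 73 pairs with a member at least 4 times lower had a median change of 1.70, with 70 of 73 higher; the member's median log2 fold change was 0.93 and the neighbour's -0.68. The 357 pairs lower by under 4 times had a median of 0.70, and the 159 at or above their neighbour one of 0.15, where members and neighbours had medians of -0.15 and -0.19. That last median was 0.0049 without hypertonic replicate 1 and 0.29 without replicate 2.

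Distance to the neighbour, in the deposited coordinates, made little difference up to 10 kb. Median changes were 0.63 for members starting up to 1 kb after the neighbour, 0.57 from 1 to 2 kb, 0.72 from 2 to 5 kb and 0.55 from 5 to 10 kb. Length did not order them either, with medians of 0.68 under 5 kb, 0.58 from 5 to 20 kb and 0.64 above 20 kb. On the plus strand the median was 0.67 and on the minus strand 0.65.

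**Figure D3:**
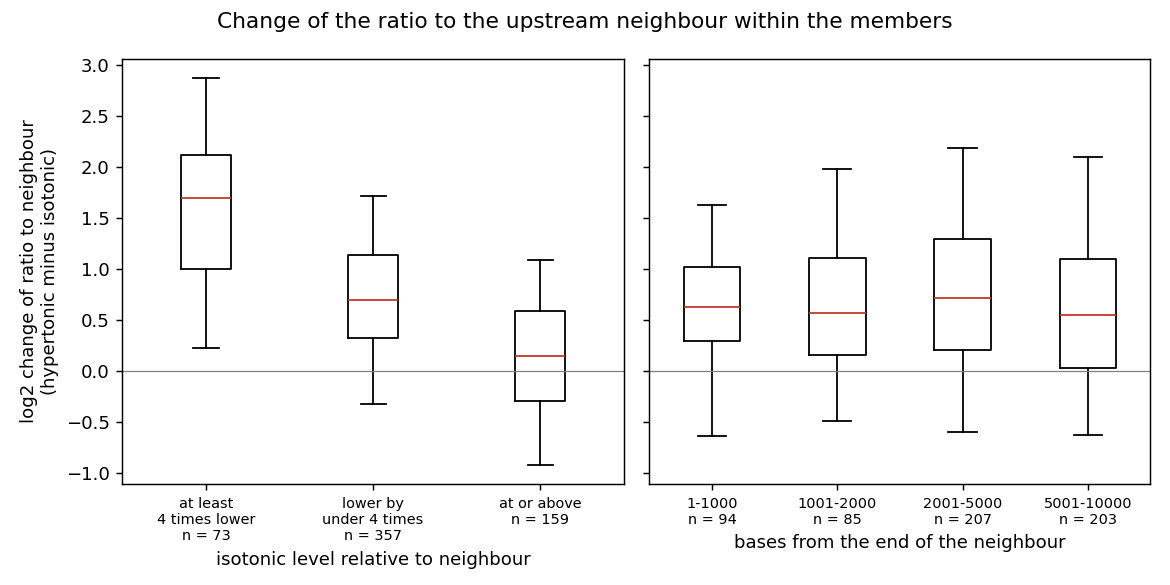
Log2 change of the ratio to the neighbour (y axis) by the member's isotonic level relative to its neighbour (left) and by distance in bases (right); boxes are quartiles with the median in red, and whiskers reach the 5th and 95th percentiles of members. Medians descend from 1.70 to 0.15 on the left and lie between 0.55 and 0.72 on the right.

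Of the 641 members, 328 were protein-coding, 86 antisense RNAs and 74 lincRNAs. The median change was 0.58 in 325 protein-coding pairs, 0.72 in 82 antisense RNAs, 0.66 in 70 lincRNAs and 0.67 in 36 processed pseudogenes. The 16 members annotated as sense-overlapping transcripts had the highest median of these types, 1.11, with 14 of 16 higher. A pseudogene may share reads with its parent gene, so those values are uncertain.

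The member with the lowest p for the ratio was POLG2 (ENSG00000256525, chr17:64477785-64497036, minus strand), the accessory subunit of the mitochondrial DNA polymerase. It starts 2580 bases after DDX5, the gene of an RNA helicase, which overlaps another gene on its strand. POLG2 measured 6.66 and 4.98 RPKM in the hypertonic libraries and 0.904 and 1.16 in the isotonic ones, and DDX5 measured 42.9 and 26.3 against 34.6 and 60.6. Every hypertonic value of POLG2 exceeded both isotonic ones, while those of DDX5 overlapped. POLG2 thereby went from 2.62% and 1.92% of DDX5 to 15.5% and 18.9%. Its log2 fold change was 2.50 ± 0.47 (SE; edgeR adjusted p = 0.192, DESeq2 adjusted p = 0.00129), and the log2 change of its ratio was 2.93 ± 0.48 (limma adjusted p = 0.0668).

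PHLDA1, a pleckstrin homology-like protein, starts 2655 bases after NAP1L1, a histone chaperone. It measured 5.63 and 3.40 RPKM in hypertonic and 0.539 and 0.774 in isotonic libraries, and NAP1L1 measured 7.10 and 8.93 against 9.62 and 8.99. PHLDA1 was separated between the media, and NAP1L1 was slightly lower in both hypertonic libraries. The log2 fold change was 2.82 ± 0.60 (edgeR adjusted p = 0.192, DESeq2 adjusted p = 0.00068), and that of the ratio was 2.97 ± 0.64 (limma adjusted p = 0.0922).

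AKAP5 anchors protein kinase A and other signalling enzymes at membranes, and starts 2042 bases after MTHFD1, an enzyme of folate metabolism. AKAP5 measured 4.25 and 3.90 RPKM in hypertonic and 0.704 and 0.599 in isotonic libraries. MTHFD1 measured 2.09 and 3.67 against 2.62 and 2.75, which overlap. AKAP5 thus exceeded MTHFD1 in both hypertonic libraries (203% and 106%) and stood at 26.8% and 21.8% of it in isotonic ones. Its log2 fold change was 2.64 ± 0.52 (edgeR adjusted p = 0.192, DESeq2 adjusted p = 0.000321).

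ISG20, an interferon-induced exonuclease, starts 3871 bases after AEN, an exonuclease linked to apoptosis. ISG20 measured 2.36 and 2.32 RPKM in hypertonic and 0.587 and 0.703 in isotonic libraries, and AEN measured 1.23 and 5.06 against 6.08 and 8.33. Both genes were separated, in opposite directions, and AEN was lowest in hypertonic replicate 1. The log2 change of the ratio, 3.37 ± 0.75, was the largest of any member (limma adjusted p = 0.0928). It was 2.34 without hypertonic replicate 1 and 4.40 without replicate 2.

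RRH, an opsin of the eye, starts 3254 bases after GAR1, a protein of H/ACA ribonucleoproteins. It measured 2.02 and 1.90 RPKM in hypertonic and 0.592 and 0.559 in isotonic libraries. GAR1 measured 1.33 and 4.45 against 5.15 and 5.44. RRH was higher in both hypertonic libraries, at levels close to each other within each group, and GAR1 was lower in both. Its log2 fold change was 1.76 ± 0.50 (edgeR adjusted p = 0.257, DESeq2 adjusted p = 0.0438).

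In other members with a low p, member and neighbour had fold changes of opposite sign. MTFR2, a mitochondrial fission regulator 6539 bases after BCLAF1, had a log2 fold change of 1.25 ± 0.47 while BCLAF1, an RNA-processing factor, had -1.11 ± 0.39. NEU3, a sialidase of the plasma membrane 9103 bases after SPCS2, had 0.92 ± 0.47 and the signal peptidase subunit SPCS2 -1.55 ± 0.44. Of the antisense RNA SLFNL1-AS1 and its neighbour CTPS1, which makes CTP, the values were 1.01 ± 0.48 and -1.32 ± 0.60. None of the 6 genes passed edgeR's adjusted threshold.

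**Figure D4:**
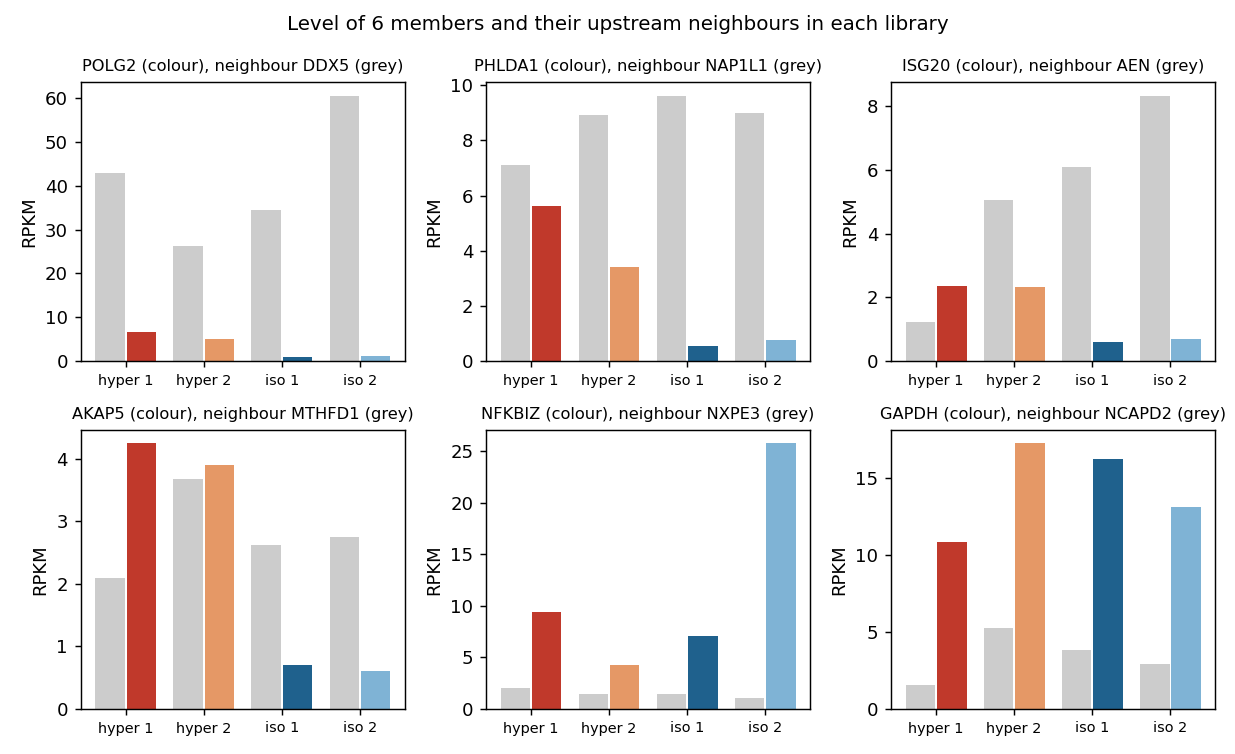
RPKM (y axis, from 0) of 6 members (coloured bars) and of their neighbours (grey bars) in each of the 4 libraries (x axis). POLG2, PHLDA1, ISG20 and AKAP5 are higher in both hypertonic than in both isotonic libraries, NFKBIZ is highest in isotonic replicate 2 (25.8 RPKM), and GAPDH overlaps between media.

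DESeq2 also called AL390195.2 and 5 members outside the naming rule, chosen here after their values were seen. PIGV, a mannosyltransferase of GPI-anchor synthesis 5891 bases after ARID1A, had a log2 fold change of 2.04 ± 0.54, and ARL9, 2102 bases after SRP72, one of 2.00 ± 0.58. The others were ZNF34 after RPL8 (2.19 ± 0.55), PYCARD-AS1 (2.18 ± 0.71) and AC015813.6 (2.12 ± 0.65). AC015813.6 began 136 bases after DYNLL2, a dynein light chain, and DYNLL2 itself had 0.97 ± 0.53.

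Among members with a lower ratio in hypertonic medium, none passed an unadjusted p of 0.05, so the following are values only. NFKBIZ, an atypical IκB protein 601 bases after NXPE3, measured 9.36 and 4.29 RPKM in hypertonic and 7.11 and 25.8 in isotonic libraries. Its levels overlapped, and the log2 change of its ratio of -1.60 ± 0.77 was -0.42 without isotonic replicate 2 and -2.78 without replicate 1. YRDC, which takes part in tRNA modification and starts 1382 bases after MTF1, measured 0.663 and 2.44 against 3.37 and 3.30 RPKM, while MTF1 lay between 1.22 and 1.33 in all 4 libraries. YRDC was lower in both hypertonic libraries, chiefly in replicate 1, and had a change of -1.35 ± 0.77 (-0.38 without hypertonic replicate 1 and -2.32 without replicate 2). VCPKMT, a lysine methyltransferase, measured 1.83 and 3.02 against 4.73 and 4.07 RPKM, with a change of -1.01 ± 0.60 (-0.43 and -1.59 without the same libraries). BRIP1, a DNA repair helicase 1846 bases after INTS2, had overlapping levels (4.10 and 2.70 against 3.55 and 3.47 RPKM), while INTS2, a subunit of the Integrator complex, was higher in both hypertonic libraries (3.33 and 2.05 against 1.84 and 1.75).

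Among the most highly transcribed members no test was passed, and the ratio often depended on 1 library. ATF4, a transcription factor of the stress response 1563 bases after MIEF1, was level at 15.0 and 14.3 RPKM in hypertonic and 15.0 and 15.6 in isotonic libraries. Its neighbour MIEF1, a regulator of mitochondrial fission, measured 0.280 and 1.55 against 1.63 and 1.23, so that the ratio's change of 1.03 ± 0.87 became -0.23 without hypertonic replicate 1 and 2.30 without replicate 2. GAPDH, a glycolytic enzyme 1972 bases after the condensin gene NCAPD2, measured 10.8 and 17.2 against 16.2 and 13.1 RPKM, and its ratio changed by 0.15 ± 0.52 (-0.40 without hypertonic replicate 1 and 0.69 without replicate 2). RPLP1 after KIF23 measured 26.1 and 15.2 against 24.0 and 21.6 RPKM, and its ratio changed by 0.70 ± 0.71 (-0.39 without hypertonic replicate 1 and 1.80 without replicate 2). RPL41, after PA2G4, measured 10.0 and 6.83 against 19.8 and 16.6 RPKM, lower in both hypertonic libraries. Its ratio changed by -1.02 ± 1.17 (-2.97 without hypertonic replicate 1 and 0.94 without replicate 2). Processed copies of GAPDH and of ribosomal protein genes elsewhere in the genome could share reads with them.

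The replication-dependent histone genes lie in clusters, so that histone genes are members and neighbours of each other. HIST1H4B measured 21.5 and 13.8 RPKM in hypertonic and 71.4 and 25.8 in isotonic libraries. HIST1H3B, its neighbour, measured 16.4 and 16.4 against 41.9 and 23.0. Both were lower in hypertonic libraries without overlap, and their log2 fold changes were -1.40 ± 0.66 and -0.99 ± 0.58. The ratio of the pair changed by -0.39 ± 0.63 (-0.072 to -0.71 with 1 library left out). Near-identical copies of these genes make single values uncertain.

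In the families counted, 0 members passed edgeR's adjusted threshold and DESeq2 called 1, the zinc finger gene ZNF34 named above. Over all members 80.5% were higher relative to their neighbours, with a median change of 0.66. All 8 zinc finger members were higher (median change 0.58), with a median log2 fold change of their own of -0.26 and of their neighbours of -0.58. Of 8 members in RNA binding and splicing 5 were higher (median 0.18), among them the helicase DDX21 at 4.23 and 12.8 against 6.98 and 11.6 RPKM. Of 6 ubiquitin-system members 5 were higher (median 0.37). FBXO5, an inhibitor of the anaphase-promoting complex, measured 5.43 and 4.91 against 9.44 and 7.84 RPKM, while its neighbour MTRF1L measured 0.911 and 1.30 against 2.05 and 2.18. Of 4 respiratory chain members 3 were higher (median 0.65). COX7A2, a subunit of cytochrome c oxidase, stood at 258% and 159% of its neighbour TMEM30A against 108% and 96.5%, without overlap. In further families 2 of 4 TMEM genes were higher (median 0.057), 5 of 7 LINC, SNHG and MIR host genes (0.13) and 1 of 2 ribosomal protein genes (-0.16). So were 2 of 3 mitochondrial ribosomal (0.52), 2 of 2 proteasome (0.56) and 2 of 2 solute carrier genes (1.23). The cytoskeleton and small GTPase families had 1 member each, both higher (1.35 and 1.60).

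The machinery that ends transcription was read from a list of 38 cleavage, polyadenylation and termination factors. In edgeR 28 had a fold change below 0 and 10 above (median -0.38, against 0.04 over all genes and -0.33 over expressed non-members), and 0 passed the adjusted threshold in either direction (0% of all genes). DESeq2 called 0. At an unadjusted p under 0.05 there were 3, all lower (2.01% of all genes were lower and 8.89% higher): CPSF6 (-1.20 ± 0.42) and CPSF7 (-1.06 ± 0.38), subunits of cleavage factor I, and WDR82 (-1.04 ± 0.43), which targets a phosphatase complex to polymerase. In CPM, 17 of 38 had both hypertonic libraries below both isotonic ones (17.5% of all genes) and 3 above (22.5%). All genes include weakly expressed ones, whereas 29 of the 38 had at least 1 RPKM, so these shares are no matched baseline. Of the expressed non-members, 23.3% had a fold change above 0. XRN2, the exonuclease that degrades RNA behind the cut, measured 2.22 and 2.40 against 3.82 and 3.65 RPKM, and PCF11, a cleavage factor, 4.57 and 5.37 against 4.32 and 4.87.

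The list's CLP1, SCAF4 and NUDT21 were neighbours of members. The members after CLP1 and SCAF4 are named here for that reason. NUDT21 measured 0.665 and 1.96 RPKM in hypertonic and 2.67 and 1.63 in isotonic libraries, which overlap, and its member is not described. After SCAF4, which binds the polymerase tail, the antisense RNA AP000254.1 stood at 107% and 56.9% of it in hypertonic and 25.6% and 24.0% in isotonic libraries, separated between the media. ZDHHC5, a palmitoyltransferase after CLP1, stood at 42.7% and 123% against 121% and 203%, which overlap.

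The members' opposite strand took a higher share of reads in hypertonic medium. Of 541 members with a row for it, antisense reads were 4.01% and 3.24% of the members' reads in the hypertonic libraries and 2.13% and 1.94% in the isotonic ones. In expressed non-members the shares were 5.02% and 2.85% against 1.48% and 1.50%. The groups did not overlap in either case. The part of this opposite-strand signal in the change of the ratio was not tested, and sense and antisense rows were counted by strand in the deposited tables.

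The genes at the edges of the rule are given as a description. Just inside 0.5 RPKM lay SYNJ1, at 0.501 in isotonic and 0.625 in hypertonic medium, and just outside CHMP1B-AS1, at 0.498 and 0.211. Just inside 10 kb lay USP49, 9993 bases after MED20, at 0.631 in isotonic and 0.762 in hypertonic medium, and just outside C1GALT1P1, 10039 bases after CPSF6, at 0.920 and 2.91. LAMTOR1 followed ANAPC15, which at 1.00 RPKM just reached the neighbours' threshold, and RAB1B followed KLC2, which rounds to the same value and missed it.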

How the data were processed

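Bru-labelled RNA was read in 4 U2OS libraries, 2 per medium. Tools credited to the submitters' processing notes, with no role stated, are STAR 2.5.3a, bedtools 2.16.2, CASAVA 1.8.2 and Bowtie2 2.3.3. Which gene annotation the authors used is not stated in the sources used here. The authors deposited an estimated count and an RPKM value per gene and strand, on GRCh38, in tables without a header, so what each column holds was inferred from its values. The deposited tables gave bases shared by same-strand genes to 48 pooled rows (3.11% to 3.48% of counts), which were left out. Strand, type and ends were taken from GENCODE 29, and 259 genes lacking an entry there were dropped. A gene counted as overlapping if it did so in the deposited coordinates or in GENCODE, or if not all of its bases had been counted.

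Counts were rounded, filtered with filterByExpr, TMM-normalized (factors 0.947, 1.22, 0.974 and 0.887) and tested with edgeR 4.0.16 (R 4.3.3) at 0.05 after Benjamini-Hochberg adjustment over 21238 genes. DESeq2 1.42.0 and limma-voom were alternatives. Changes of the ratio used log2 CPM with a prior count of 2 and limma 3.58.1, adjusted over 2556 pairs. Both were tested on simulated data. With 2 against 2 libraries an exact permutation test cannot go below 0.333, so none is given. Replicate numbers gave no sign of pairing: the correlation of the deviations from group means was 0.0247 over genes. Such a value cannot show that the libraries were not prepared in pairs.

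The members and gene lists were chosen with earlier results of these data known. Named members are the 10 lowest p of a higher and of a lower ratio, the 8 highest isotonic levels, 2 per family and those at the rule's edges. Counts are of reads, since the labels mention no molecular identifiers. Python 3.11.15 with pandas 2.3.3 and matplotlib 3.10.9 made the tables and figures.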

Additional observations from a re-analysis of the deposited data

How the results depend on the processing

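Members called higher by edgeR numbered 0 as reported, 6 without the count filter, 3 with replicate number as a block and 11 with DESeq2, and 0 to 69 when 1 library was left out; members called lower numbered 0 to 30 when 1 library was left out. For the ratio, the replicate block gave 2 calls higher (POLG2 and ISG20), and leaving out 1 library gave 0 to 182 higher and 0 to 16 lower. The replicate block left the median change of the ratio at 0.66. That median was 0.43 to 0.84 with 1 library left out, and 0.95 with neighbours of at least 2 RPKM. The median log2 fold change of the members was 0.48 with total-count scaling, 0.48 with members chosen on all 4 libraries and 0.64 with members chosen on the hypertonic libraries, but 0.081 with members of at least 1 RPKM. The median change of genes with an active gene on the opposite strand reversed to -0.012 without hypertonic replicate 2, within -0.012 to 0.17 over the libraries left out. The cause of these differences was not tested. The block's 3 calls were POLG2, PHLDA1 and AKAP5. With 2 libraries per group, the spread of hypertonic medium rests on 1 difference between libraries, and members with few counts are measured least precisely.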
